A study of Mus musculus with 9 samples.

Results

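The genes described are 42 genes of G2 and M phase: those whose products start mitosis, attach and segregate chromosomes, and divide the cell. They were taken by gene symbol from a table of 31232 genes. All 42 symbols were found, and all 42 passed the filter on low counts that left 15774 genes for testing. Polyadenylated RNA was sequenced from bEnd.3 cells, an immortalised mouse brain endothelial line transformed with polyoma middle T antigen. The cells grew on glass coverslips in medium with serum and were put under flow in a parallel-plate chamber. The 3 PSS libraries came from laminar flow at 10 dyne/cm2, which the labels describe as physiological for brain vessels. The 3 HSS libraries came from laminar flow at 20 dyne/cm2, which stands for the high shear at arterial branch points where aneurysms start. The 3 Vortex libraries came from disturbed flow at 0.5 to 2 dyne/cm2, which stands for flow inside an established aneurysm. All cells were thus flow-exposed, and shear level and flow pattern differ together between Vortex and the laminar groups, so their parts cannot be told apart. The labels give no exposure time or cell density for any group. They do not say whether libraries of a group came from separate cultures, so p-values measure only the spread between these libraries, which may be technical.

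Entry into mitosis is driven by cyclin A and cyclin B with the kinase CDK1, which CDC25 phosphatases switch on and which Polo-like and Aurora kinases reinforce. Chromosomes are condensed by topoisomerase II and condensin, held at kinetochores by the NDC80 complex, and watched by the BUB1, BUBR1 and MPS1 checkpoint kinases until CDC20 and the anaphase-promoting complex (APC/C) release them. Most of these genes are transcribed late in the cell cycle, and endothelium in resting vessels divides rarely.

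Transcription of this class is known to depend on short promoter elements: a hexamer called CHR (cell cycle genes homology region), bound by the MuvB complexes, and CCAAT boxes, bound by NF-Y. The promoters of 4 members are shown because these genes carry the comparisons below: Mki67 and Bub1 were lower in all Vortex libraries, Ube2c and Cdc25b were higher in HSS. Each runs 5′ to 3′ from 250 bases before to 50 bases after the transcription start and is the RefSeq sequence on GRCm38.p6, a build other than the GRCm39 of the counts. Capitals mark TTTGAA or TTCGAA, and CCAAT, on either strand (TTCAAA and ATTGG are the reverse complements; TTCGAA is its own).
Mki67: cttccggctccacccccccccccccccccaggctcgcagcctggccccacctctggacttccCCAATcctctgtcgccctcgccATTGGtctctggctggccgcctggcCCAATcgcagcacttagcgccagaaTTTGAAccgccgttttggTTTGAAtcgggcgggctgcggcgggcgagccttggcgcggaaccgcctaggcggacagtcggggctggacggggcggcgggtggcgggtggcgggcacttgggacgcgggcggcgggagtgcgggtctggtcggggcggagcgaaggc
Bub1: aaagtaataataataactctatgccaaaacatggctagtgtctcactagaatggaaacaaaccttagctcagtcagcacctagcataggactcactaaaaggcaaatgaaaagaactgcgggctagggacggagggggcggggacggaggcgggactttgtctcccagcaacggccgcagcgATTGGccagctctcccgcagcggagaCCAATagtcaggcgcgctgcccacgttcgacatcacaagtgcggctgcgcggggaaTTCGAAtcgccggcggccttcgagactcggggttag
Ube2c: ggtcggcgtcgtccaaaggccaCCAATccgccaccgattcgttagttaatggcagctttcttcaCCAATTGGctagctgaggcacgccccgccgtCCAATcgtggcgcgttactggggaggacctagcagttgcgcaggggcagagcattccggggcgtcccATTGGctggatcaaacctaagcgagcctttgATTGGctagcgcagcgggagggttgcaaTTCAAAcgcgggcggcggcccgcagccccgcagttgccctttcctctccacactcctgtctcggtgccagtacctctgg
Cdc25b: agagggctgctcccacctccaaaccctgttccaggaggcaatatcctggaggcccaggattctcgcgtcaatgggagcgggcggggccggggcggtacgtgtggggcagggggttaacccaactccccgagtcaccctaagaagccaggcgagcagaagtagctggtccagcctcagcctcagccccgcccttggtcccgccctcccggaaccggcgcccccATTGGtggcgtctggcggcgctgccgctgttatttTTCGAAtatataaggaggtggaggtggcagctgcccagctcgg
Mki67 lies at chr7:135716330-135716629 on the minus strand and Bub1 at chr2:127831810-127832109 on the minus strand. Ube2c lies at chr2:164769679-164769978 and Cdc25b at chr2:131186698-131186997, both on the plus strand. Mki67 held 2 hexamers and 3 CCAAT boxes, Bub1 1 hexamer and 2 CCAAT boxes, Cdc25b 1 and 1, and Ube2c 1 hexamer and 6 CCAAT boxes, of which 1 pair overlaps in CCAATTGG. A promoter of this kind was found for 34 of the 42 members. The hexamer was present in 27 of the 34 (79.4%), against 19.2% of 32817 promoters of the same length. At least 2 CCAAT boxes were present in 16 (47.1% against 11.7%), and both features together in 15 (44.1% against 2.31%). The median log2 fold change of the 27 members with the hexamer and the 7 without it was 0.42 and 0.31 in HSS against PSS, -0.82 and -0.86 in Vortex against PSS, and -1.12 and -0.94 in Vortex against HSS, a difference that was not tested. A match describes letters in a window and is not a measured binding site.

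Library totals ranged from 17407217 to 22965802 counts. The 42 genes took 0.653% to 0.764% of counts in PSS, 0.893% to 0.906% in HSS and 0.337% to 0.451% in Vortex. Vortex replicate 2 stood apart from the other 8 libraries: relative to the PSS mean, the eighth of tested genes with the lowest GC content had a median log2 difference of -1.41 there and the eighth with the highest 0.90, against -0.13 and 0.18 in Vortex replicate 1. Replicates of every group differed by more than counting noise (chi-square per degree of freedom 2.10 to 2.80 in HSS, 6.49 to 68.0 in PSS, 68.0 to 419 in Vortex), so none was treated as a copy. Endothelial markers differed between the laminar groups and between the Vortex libraries. The summed level of 10 genes was 2461 to 3123 CPM (counts scaled to the same library total) in PSS and 602 to 627 in HSS. It was 862 and 1359 in Vortex replicates 1 and 3, below PSS, and 7228 in Vortex replicate 2, above PSS. Cldn5 had 1110 to 1202 counts in PSS, 0 to 2 in HSS, and 13, 7791 and 62 in Vortex replicates 1, 2 and 3. Pecam1 had 254 to 300 counts in PSS, 23 to 32 in HSS, and 28, 30567 and 1116 in Vortex. Tie1 moved less, with 6672 to 9552 counts in PSS, 3658 to 4288 in HSS, and 3478, 23506 and 6079 in Vortex. A fibroblast list of 7 genes summed to 660 to 887 CPM in PSS, 1057 to 1114 in HSS and 1040, 110 and 878 in Vortex replicates 1, 2 and 3. Its genes did not move together in Vortex replicates 1 and 3. Counts there were above PSS for Pdgfra (7412 and 6731, PSS 1374 to 1612) and Dcn (648 and 910, PSS 72 to 101). They were below PSS for Col1a1 (1971 and 3335, PSS 3983 to 5396) and Col3a1 (6451 and 6789, PSS 8195 to 11232). A leukocyte and macrophage list of 7 genes summed to 6.97 to 7.74 CPM in PSS, 22.3 to 25.5 in HSS and 51.0, 22.4 and 56.0 in Vortex replicates 1, 2 and 3. Of its genes Csf1r had 28 to 59 counts in PSS, 281 to 367 in HSS and 175 to 276 in Vortex, Cd68 had 78 to 121 counts in the laminar libraries and 527, 167 and 741 in Vortex, and the defining marker Ptprc had 0 or 1 count in every library. The part of these shifts in the results below was not tested.

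Mitosis genes were at their highest level in HSS and at their lowest in Vortex. Their summed level was 6330, 6125 and 7523 CPM in PSS, 8865, 8716 and 8865 CPM in HSS, and 3704, 4631 and 4664 CPM in Vortex. The 3 groups did not overlap in this sum. By group means, 32 members followed the order HSS, PSS, Vortex, 8 followed HSS, Vortex, PSS (Foxm1, Cdc25b, Plk1, Aurka, Aurkb, Incenp, Cdc20 and Ube2c), and Ccnb2 and Cdk1 followed PSS, HSS, Vortex. The place of Vortex above PSS in those 8 rested on Vortex replicate 2 except for Cdc25b. Without that library the fitted difference of Vortex from PSS was 0.67 for Cdc25b. For the rest of the 8 it was below 0, from -0.67 for Cdc20 to -0.04 for Ube2c. In bulk RNA a smaller share of cells in G2 and M and less RNA of these genes per dividing cell cannot be told apart.

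**Figure D1:**
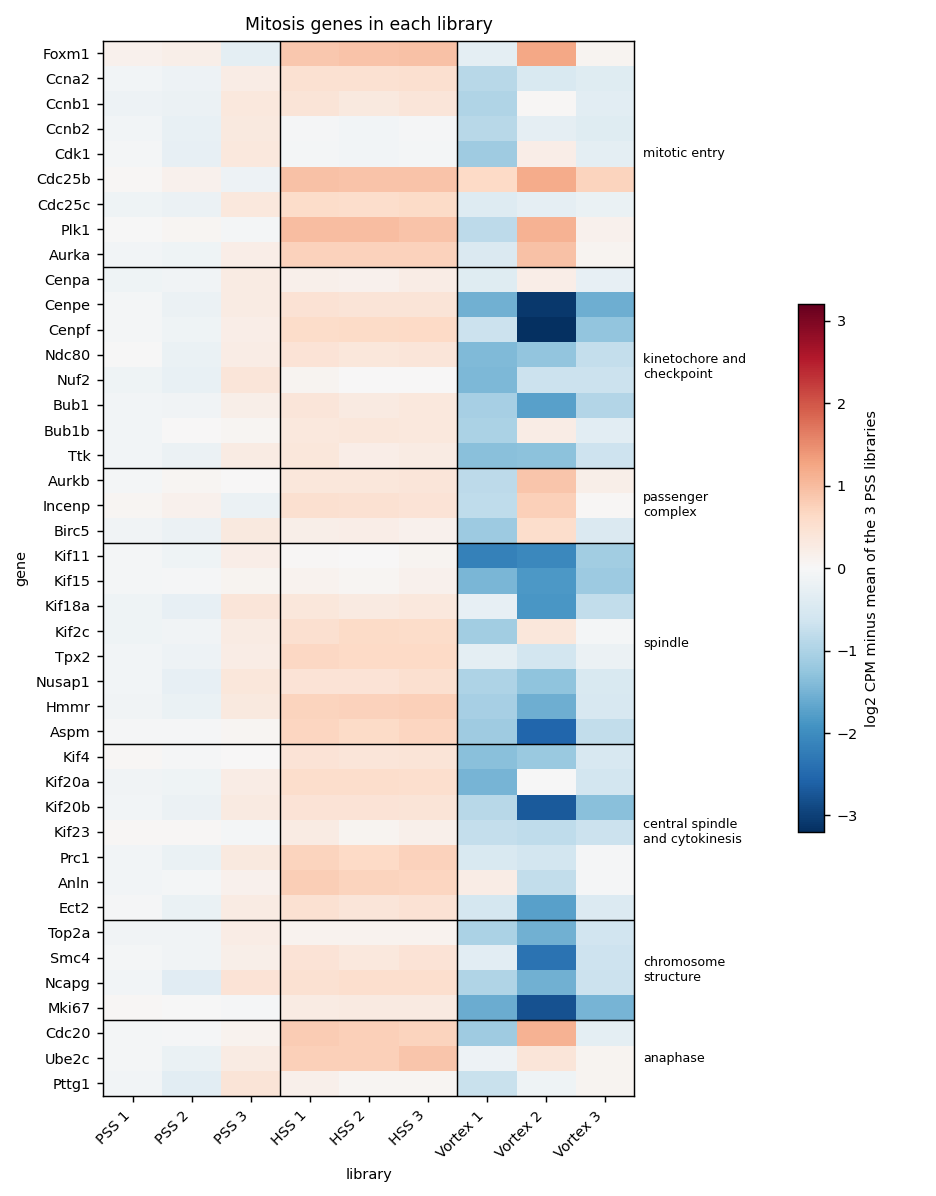
Colour gives log2 CPM minus the mean of the 3 PSS libraries for each of the 42 genes (rows, by role) in each of the 9 libraries (columns). The HSS columns are alike and mostly red, and the Vortex columns are mostly blue, where Vortex 1 is the lowest of the 9 libraries for 21 members and Vortex 2 for 18, while Vortex 2 is the highest for 8.

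Between the laminar flows, HSS values lay above PSS for most members, but few passed the test across all genes. The median fitted difference over the 42 genes was 0.42 on the log2 scale, or 1.34-fold, against -0.005 over all tested genes. The HSS and PSS libraries did not overlap for 30 members, all higher in HSS, where 29.9% of tested genes were separated in that direction and 26.3% in the other. With edgeR's quasi-likelihood test and Benjamini-Hochberg adjustment over all tested genes, called here at an adjusted p under 0.05, 2 members rose (Cdc25b and Ube2c) and none fell, where 4.18% of tested genes were called higher and 3.7% lower. A share of 4.76% of members is near that background. At an unadjusted p under 0.05, 11 members were higher and 0 lower in edgeR, in DESeq2 and in limma-voom alike. The share of all tested genes at that unadjusted threshold is not given, so this count and those below are not set against a background. The count of called members hung on the spread estimated from all 9 libraries: it was 17 without Vortex replicate 2, 1 without Vortex replicate 3, 27 with only the 6 PSS and HSS libraries, and 0 without any 1 of these 6 (4 to 10 higher and 0 lower at an unadjusted p under 0.05). All member calls under those settings were higher in HSS. The background moved too: 2501 of 16233 tested genes were called higher without Vortex replicate 2, and 574 of 16228 without Vortex replicate 3. With only the 6 PSS and HSS libraries it was 3110 of 15277.

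Under Vortex flow, 16 members fell and 1 rose against PSS. The members that fell were Cenpe, Ndc80, Nuf2, Bub1, Ttk, Kif11, Kif15, Nusap1, Hmmr, Aspm, Kif4, Kif20b, Kif23, Top2a, Ncapg and Mki67, and Cdc25b rose. Among all tested genes 5.03% were called lower and 8.33% higher, so the members' 38.1% called lower stood above the background. The 2.38% called higher was 1 gene. The members had a lower median GC content (45.6%) than the tested genes (49.4%), so this background is not matched for GC content. The median over members was -0.58, or 1.50-fold lower, against 0.11 over all tested genes. Libraries did not overlap for 24 members lower in Vortex and for 1 higher, where 14.4% and 15.6% of tested genes were so separated. Without Vortex replicate 2 the calls were 27 lower and 1 higher, where 2698 of 16233 tested genes were called lower and 3190 higher. With 1 laminar library removed the member calls were 5 to 8, all lower: 5, 8 and 7 without PSS replicates 1, 2 and 3, and 8 without each HSS library. In those fits 224 to 429 of 16204 to 16390 tested genes were called lower. With only the PSS and Vortex libraries in the edgeR fit no member was called (17 lower and 1 higher at an unadjusted p under 0.05), and with those less Vortex replicate 2 the calls were again 16 lower and 1 higher. There 1515 of 15788 tested genes were called lower and 2149 higher. Removing a smooth trend with GC content from each library left 10 members lower and 1 higher, with a median of -0.32, where 535 of 15774 tested genes were called lower and 950 higher.

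Vortex and HSS differed most. All 42 members had a lower fitted level in Vortex, with a median of -1.02, or 2.03-fold, against 0.10 over all tested genes. Of these, 21 fell and none rose by edgeR (29 lower and 0 higher at an unadjusted p under 0.05), where 2.67% of tested genes were called lower and 4.37% higher. Libraries did not overlap for 31 members, all lower in Vortex, where 16.9% of tested genes were separated in that direction and 19.5% in the other. The 21 were Cenpe, Cenpf, Ndc80, Bub1, Ttk, Kif11, Kif15, Tpx2, Nusap1, Hmmr, Aspm, Kif4, Kif20b, Kif23, Prc1, Ect2, Top2a, Ncapg, Mki67, Ccna2 and Cdc25c. Without Vortex replicate 2 the count was 37, where 1627 of 16233 tested genes were called lower. With the GC trend removed it was 22, where 517 of 15774 tested genes were called lower. The member count was 0 without any 1 of the HSS libraries and with only the HSS and Vortex libraries (27 or 28 lower and 0 higher at an unadjusted p under 0.05). It was 35 with those less Vortex replicate 2, where 1703 of 15399 tested genes were called lower. This comparison shares its Vortex libraries with the one against PSS and its HSS libraries with the one between laminar flows.

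**Figure D2:**
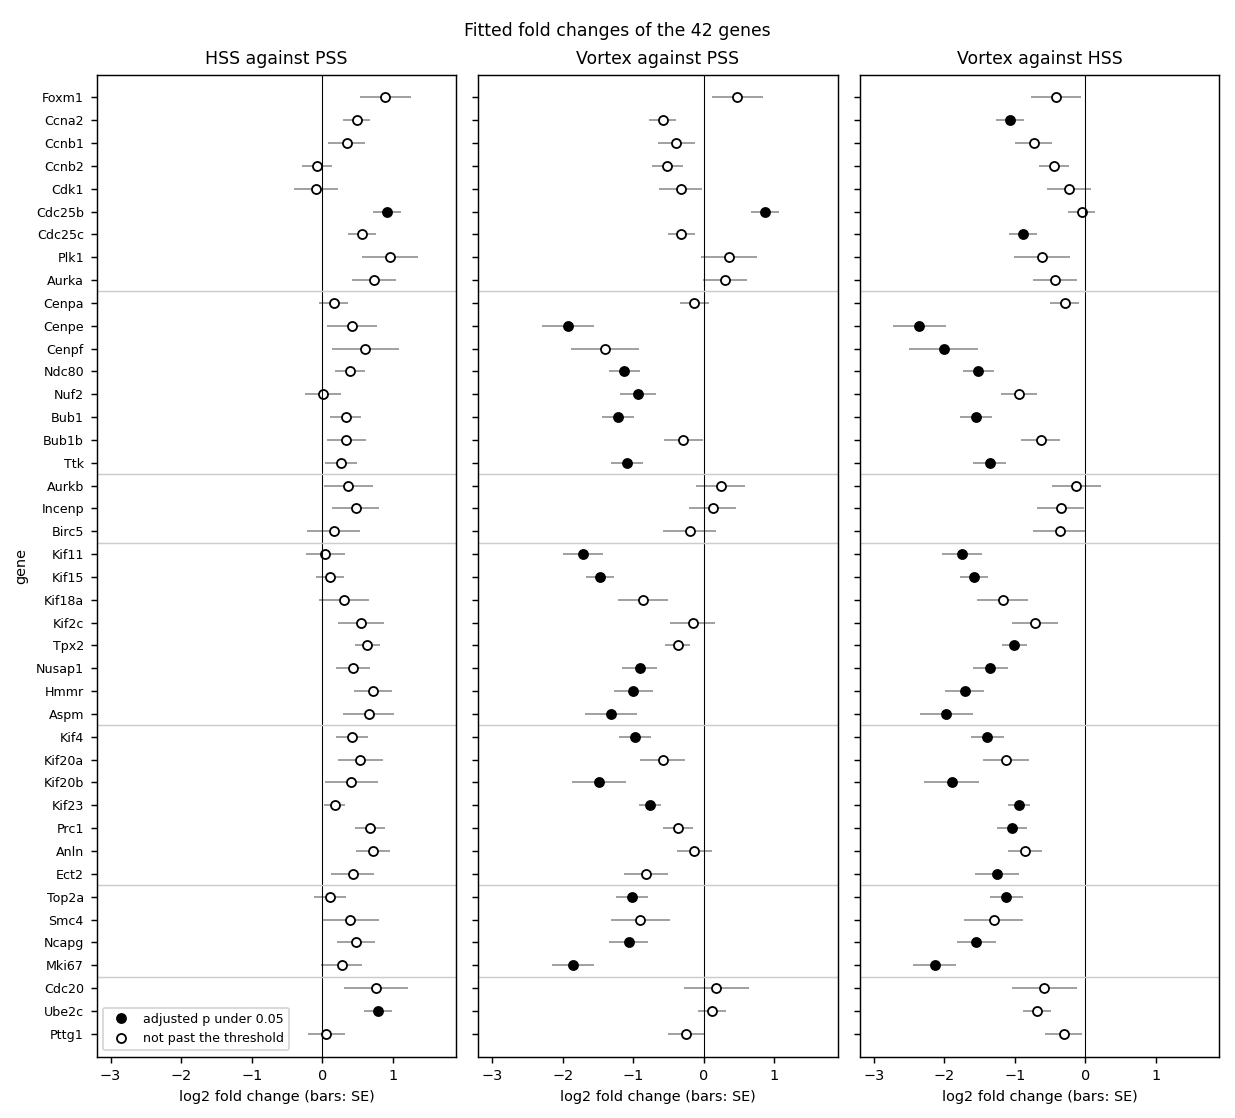
Points give the fitted log2 fold change of each gene with its standard error (x axis) in the 3 comparisons, by role (rows). Filled points have an edgeR adjusted p under 0.05: 2 in HSS against PSS, 17 in Vortex against PSS and 21 in Vortex against HSS.

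Among the regulators of mitotic entry (Foxm1, Ccna2, Ccnb1, Ccnb2, Cdk1, Cdc25b, Cdc25c, Plk1 and Aurka), 1 of 9 rose in HSS against PSS, 1 rose in Vortex against PSS, and 2 fell in Vortex against HSS. Cdc25b, a phosphatase that activates CDK1, was 80.5, 85.4 and 69.4 CPM in PSS, 149, 147 and 148 CPM in HSS, and 121, 179 and 128 CPM in Vortex. Every HSS and every Vortex library was above every PSS library, while Vortex overlapped with HSS. The log2 fold change was 0.92 (SE 0.20, edgeR adjusted p = 0.0233) in HSS and 0.87 (SE 0.20, edgeR adjusted p = 0.0210) in Vortex, both against PSS. It was the only member whose Vortex libraries all lay above all PSS libraries. Removing a single laminar library, whichever it was, ended each call (adjusted p = 0.0694 to 0.109 for HSS and 0.0532 to 0.0923 for Vortex). It passed in 15 of 22 alternative settings for HSS and 13 of 23 for Vortex.

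Ccnb1, cyclin B1, had the highest level per gene length in this role by the mean over all 9 libraries, and was 58.6 ± 10.5 FPKM (fragments scaled by gene length and library total; SD, n = 3) in PSS, 73.0 ± 2.71 in HSS and 39.9 ± 13.2 in Vortex. By library it was 211, 206 and 294 CPM in PSS, 311, 288 and 304 CPM in HSS, and 119.5, 240 and 183 CPM in Vortex. PSS overlapped with both other groups, and none of the differences from PSS passed the test with all 9 libraries (0.35 in HSS and -0.39 in Vortex). Without Vortex replicate 2 that of Vortex was -0.65 and passed (edgeR adjusted p = 0.0367). With the GC trend removed as well it did not (edgeR adjusted p = 0.0713). A pseudogene copy, Ccnb1-ps, had 18 to 65 counts per library. How reads matching both copies were handled is not given, so the number of shared reads cannot be told from these counts. Ccna2, cyclin A2, and Cdc25c fell in Vortex against HSS by 1.07 and 0.89 on the log2 scale (edgeR adjusted p = 0.0175 and 0.0310). Foxm1, a transcription factor of G2 and M genes, and the kinases Plk1 and Aurka had the largest coefficients of variation of this role in Vortex: Plk1 was 39.5, 155 and 78.5 CPM there, against 68.3 to 74.1 in PSS and 135 to 142 in HSS. For these 3 genes Vortex replicate 2 was above every PSS library, and Vortex replicate 1 was the lowest of its group.

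The kinetochore and checkpoint genes held 5 of the 16 falls against PSS among 8 members. None of the 8 passed the main edgeR test, or an unadjusted p under 0.05, between HSS and PSS. With only the PSS and HSS libraries, Cenpe, Cenpf, Ndc80, Bub1 and Bub1b were called higher in HSS (edgeR adjusted p = 0.00396 to 0.04955). Cenpa, Nuf2 and Ttk were not, and 3110 of 15277 tested genes were called higher there. Their summed level was 1140, 1111 and 1401 CPM in PSS, 1594, 1566 and 1587 CPM in HSS, and 612, 656 and 699.7 CPM in Vortex. The 3 Vortex sums lay close together and below every laminar library, while single members spread further. Within Vortex, replicate 2 was the lowest for Cenpf (32.2 CPM, coefficient of variation 67.0%) and the highest for Bub1b (305 CPM, 42.1%). Cenpe, the kinesin that carries chromosomes to the spindle equator, was 134, 123 and 171 CPM in PSS, 196, 189 and 189 CPM in HSS, and 48.6, 16.5 and 47.4 CPM in Vortex. The highest Vortex library was below the lowest PSS library. Its log2 fold change was -1.93 (SE 0.37, edgeR adjusted p = 0.0115) against PSS and -2.35 (SE 0.37, edgeR adjusted p = 0.0138) against HSS, or 3.80-fold and 5.11-fold lower. Without Vortex replicate 2 it was -1.57 against PSS.

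Bub1, a checkpoint kinase at the kinetochore, was 152.5, 152 and 186 CPM in PSS, 213, 199 and 205 CPM in HSS, and 78.1, 48.3 and 84.4 CPM in Vortex. The 3 groups did not overlap, and Bub1 fell by 1.22 (SE 0.23, edgeR adjusted p = 0.0107) against PSS and by 1.55 (SE 0.23, edgeR adjusted p = 0.0112) against HSS. Ndc80, the core of the complex that grips microtubules, was 72.2, 63.0 and 86.6 CPM in PSS, 100.0, 94.8 and 96.6 CPM in HSS, and 27.6, 30.7 and 43.2 CPM in Vortex. Again no library of a group overlapped with another group. Ndc80 fell by 1.13 against PSS (SE 0.22, edgeR adjusted p = 0.0115), a call that ended without PSS replicate 1 (adjusted p = 0.0558) and with the GC trend removed (adjusted p = 0.144), and by 1.52 against HSS (SE 0.22, edgeR adjusted p = 0.0102). Its partner Nuf2 and the checkpoint kinase Ttk (MPS1) fell by 0.93 and 1.09 against PSS, and both of those calls also ended with the GC trend removed (adjusted p = 0.678 and 0.0997). Bub1b, which encodes BUBR1 and has the highest level per length of this role over all 9 libraries (63.5 ± 2.21 FPKM in PSS, SD, n = 3), went another way within Vortex. It was 246, 261 and 272 CPM in PSS, 327, 333 and 327.5 CPM in HSS, and 127, 305 and 203.5 CPM in Vortex. Vortex replicates 1 and 3 were below and replicate 2 above every PSS library. The difference from PSS (-0.29) did not pass the test with all 9 libraries. Without Vortex replicate 2 it was -0.65 and passed (edgeR adjusted p = 0.0196). Cenpf was 181, 32.2 and 122 CPM in Vortex, all below PSS (266 to 339). Its fitted difference of -1.40 from PSS did not pass the test with all 9 libraries. Without Vortex replicate 2 it was -0.97 and passed (edgeR adjusted p = 0.00263). Cenpf fell by 2.01 against HSS (edgeR adjusted p = 0.0429). Cenpa, the centromeric histone, differed least in this role (-0.13 against PSS, not past the test).

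No member of the chromosomal passenger complex, which corrects faulty attachments, passed the main edgeR test with all 9 libraries in any comparison, nor reached an unadjusted p under 0.05 there. With only the PSS and HSS libraries in the fit Aurkb and Incenp were called higher in HSS (edgeR adjusted p = 0.0106 and 0.00913). Without Vortex replicate 2, Birc5 was called lower in Vortex against PSS (-0.78, edgeR adjusted p = 0.0203), and Incenp and Birc5 against HSS (-0.81 and -0.95, edgeR adjusted p = 0.0267 and 0.0143). Incenp, its scaffold, was 165, 173 and 138 CPM in PSS, 224, 223 and 215 CPM in HSS, and 89.4, 268 and 162 CPM in Vortex. Every HSS library was above every PSS library, and the Vortex libraries ran from below to above both groups. Its fitted difference from PSS in Vortex, 0.13, was -0.34 without Vortex replicate 2 and -0.05 with library totals. Aurkb and Birc5 (survivin) had the same arrangement in Vortex: replicate 1 was the lowest and replicate 2 the highest of all 9 libraries for both, at 29.5 and 96.8 CPM for Aurkb and 58.5 and 193 CPM for Birc5.

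Of the 8 spindle motors and microtubule proteins, 5 fell against PSS and 6 against HSS in Vortex. None passed the main edgeR test between the laminar flows, where 2 had an unadjusted p under 0.05. With the GC trend removed, Hmmr and Tpx2 were called higher in HSS (edgeR adjusted p = 0.0365 and 0.0250). Kif11 (Eg5), the kinesin that pushes spindle poles apart, was 220, 211 and 267 CPM in PSS, 237, 234 and 248 CPM in HSS, and 51.3, 55.0 and 106 CPM in Vortex. PSS and HSS overlapped, and all Vortex libraries were lower than both. Kif11 fell by 1.71 (SE 0.28, edgeR adjusted p = 0.00730) against PSS and by 1.76 (SE 0.28, edgeR adjusted p = 0.0138) against HSS. Kif15, which can share the work of Kif11, was 66.4, 68.4 and 74.4 CPM in PSS, 75.9, 72.9 and 76.2 CPM in HSS, and 25.0, 19.3 and 31.1 CPM in Vortex. The laminar groups overlapped and Vortex lay below both. It had the smallest p of all members in both Vortex comparisons: -1.47 (SE 0.20, edgeR adjusted p = 0.00439) against PSS and -1.58 (SE 0.20, edgeR adjusted p = 0.00825) against HSS.

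Tpx2, an activator of Aurora A on the spindle and the member of this role with the highest level per length over all 9 libraries (65.0 ± 8.26 FPKM in PSS and 99.1 ± 1.32 in HSS, SD, n = 3), was 272, 259 and 343 CPM in PSS, 461, 447 and 452 CPM in HSS, and 232, 191 and 254.5 CPM in Vortex. The 3 groups did not overlap. The difference of HSS from PSS was 0.64 and did not pass the main edgeR test with all 9 libraries (adjusted p = 0.0624). It passed with the GC trend removed (edgeR adjusted p = 0.0250) and without Vortex replicate 2 (edgeR adjusted p = 0.00483). Tpx2 fell by 1.01 (SE 0.18, edgeR adjusted p = 0.0166) in Vortex against HSS. Nusap1, Hmmr and Aspm, which act on spindle microtubules and poles, fell against PSS by 0.91, 1.00 and 1.31. None of these 3 passed once Vortex replicate 1 or a single laminar library was removed (highest edgeR adjusted p = 0.124, 0.135 and 0.124). With the GC trend removed Nusap1 was -0.41 (edgeR adjusted p = 0.256) and Hmmr -0.525 (edgeR adjusted p = 0.136). Kif18a and Kif2c did not pass the main edgeR test in any comparison with all 9 libraries. With the GC trend removed, Kif18a was called lower in Vortex against HSS (edgeR adjusted p = 0.02965), and Kif2c was not called.

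For cytokinesis, 3 of 7 members (Kif4, Kif20b and Kif23) fell against PSS, and these fell together with Prc1 and Ect2 against HSS. The Kif4 and Kif20b calls against PSS (-0.97 and -1.48) ended on removing 1 laminar library, and that of Kif20b also without Vortex replicate 3 (adjusted p up to 0.0949 and 0.115). Kif23 (MKLP1), a motor of the central spindle, was 107 to 115 CPM in PSS and 63.0 to 69.3 CPM in Vortex, and it had the smallest coefficient of variation of all members in Vortex (4.78%). It fell by 0.76 against PSS (SE 0.15, edgeR adjusted p = 0.0133), which did not pass without PSS replicate 1 (adjusted p = 0.0739) or 2 (adjusted p = 0.0507). Kif20a (MKLP2), the member of this role with the highest level per length over all 9 libraries (28.4 ± 3.59 FPKM in PSS, SD, n = 3), was 109, 106 and 139 CPM in PSS, 172, 173 and 170 CPM in HSS, and 41.8, 117 and 77.4 CPM in Vortex. HSS lay above both other groups, and Vortex replicate 2 lay within PSS. The difference of Vortex from PSS, -0.585 by the fit, did not pass the test with all 9 libraries. Without Vortex replicate 2 it was -0.98 and passed (edgeR adjusted p = 0.00961).

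Prc1, which bundles microtubules at the midzone, was 82.3, 75.0 and 108 CPM in PSS, 142, 135 and 146 CPM in HSS, and 62.6, 58.1 and 85.3 CPM in Vortex. HSS was above both other groups, which overlapped. Its difference in HSS against PSS was 0.67 and did not pass the main edgeR test with all 9 libraries (adjusted p = 0.0909). Prc1 fell by 1.04 in Vortex against HSS (SE 0.21, edgeR adjusted p = 0.0259). With the GC trend removed the first passed (edgeR adjusted p = 0.0476) and the second did not (edgeR adjusted p = 0.0549). Anln (anillin), a scaffold of the contractile ring, was 173, 174 and 203 CPM in PSS, 294 to 313 CPM in HSS, and 215, 107 and 180 CPM in Vortex. HSS was again above every other library, and the Vortex libraries lay on both sides of PSS. Its difference of 0.72 in HSS against PSS had an edgeR adjusted p of 0.110, or 0.00144 without Vortex replicate 2.

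Chromosome structure genes were lower in every Vortex library than in any laminar library by their sum, to which Top2a and Mki67 gave most: over 4 members it was 1664, 1616 and 1933 CPM in PSS, 2018, 2008 and 2044 CPM in HSS, and 846, 461 and 975 CPM in Vortex. Mki67, which encodes the surface protein of mitotic chromosomes used as the Ki-67 proliferation marker, was 506, 490.5 and 476.5 CPM in PSS, 589.5, 595 and 603 CPM in HSS, and 163, 70.7 and 173.5 CPM in Vortex. The 3 groups did not overlap. Mki67 fell by 1.86 against PSS (SE 0.30, edgeR adjusted p = 0.00703) and by 2.13 against HSS (SE 0.30, edgeR adjusted p = 0.0102), or 3.62-fold and 4.39-fold. Without Vortex replicate 2 the log2 fold change against PSS was -1.55, and with the GC trend removed it was -1.75.

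Top2a, the topoisomerase that untangles sister chromatids, had the highest level per length of all 42 members in PSS (106.0 ± 11.9 FPKM) and HSS (111.5 ± 0.50), and was below Ube2c, Cdc20 and Aurka in Vortex (47.0 ± 16.1; SD, n = 3). By library it was 846, 836 and 1063 CPM in PSS, 981, 980.0 and 989 CPM in HSS, and 447.5, 314.5 and 595 CPM in Vortex. PSS and HSS overlapped, and Vortex lay below both. Top2a fell by 1.02 against PSS (SE 0.23, edgeR adjusted p = 0.0219), which no longer passed once a laminar library was removed (adjusted p = 0.0506 to 0.0750), and by 1.12 against HSS (SE 0.23, edgeR adjusted p = 0.0263). The condensin gene Ncapg fell by 1.07 against PSS, and with the GC trend removed its difference was -0.04 (edgeR adjusted p = 0.945). Smc4, the ATPase partner in condensin, was 191, 46.6 and 153 CPM in Vortex, all below the PSS range of 222 to 276. It did not pass the main edgeR test against either group. Without Vortex replicate 2 it was called lower against PSS and HSS (-0.50 and -0.90, edgeR adjusted p = 0.0240 and 0.00291). With the GC trend removed it was called lower against HSS (edgeR adjusted p = 0.0258) and not against PSS (edgeR adjusted p = 0.192).

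**Figure D3:**
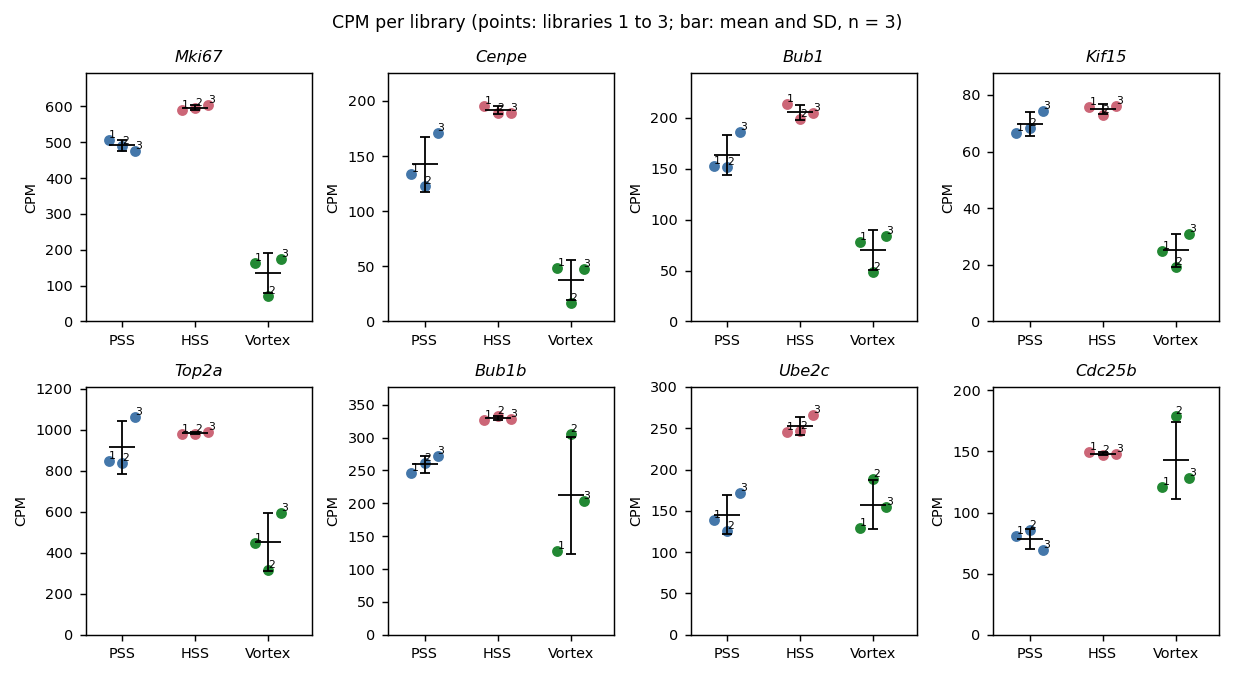
Each panel gives CPM (y axis, from 0) for 1 gene in the 9 libraries (points, numbered by replicate) with the mean and SD of each group. Mki67, Cenpe, Bub1, Kif15 and Top2a lie lower in all 3 Vortex libraries, Bub1b and Ube2c overlap with PSS there, and Cdc25b lies above PSS in both HSS and Vortex.

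At the exit from mitosis, none of the 3 members fell in Vortex against PSS by edgeR with all 9 libraries, and none had an unadjusted p under 0.05 there. Ube2c, the ubiquitin-conjugating enzyme of the APC/C, was 139, 125.5 and 172 CPM in PSS, 246, 247 and 266 CPM in HSS, and 129, 188 and 154 CPM in Vortex. HSS lay above all other libraries, and Vortex overlapped with PSS. It rose by 0.80 in HSS against PSS (SE 0.20, edgeR adjusted p = 0.0416), a call that passed in 11 of 22 alternative settings. It was lost on removing a single laminar library or Vortex replicate 3 (adjusted p = 0.0555 to 0.179) and with the GC trend removed (adjusted p = 0.0609). Cdc20, which activates the APC/C, was 92.9, 95.5 and 105 CPM in PSS, 172, 165 and 161 CPM in HSS, and 44.3, 210 and 78.2 CPM in Vortex, the widest relative spread of any member in Vortex. Its fitted difference from PSS in Vortex was 0.18 with all 9 libraries. Without Vortex replicate 2 it was -0.67 and passed the test (edgeR adjusted p = 0.0293). Pttg1 (securin), which holds separase back, overlapped between groups in every comparison, at 56.2 to 94.4 CPM in PSS, 73.1 to 78.5 in HSS and 42.7 to 75.0 in Vortex.

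**Figure D4:**
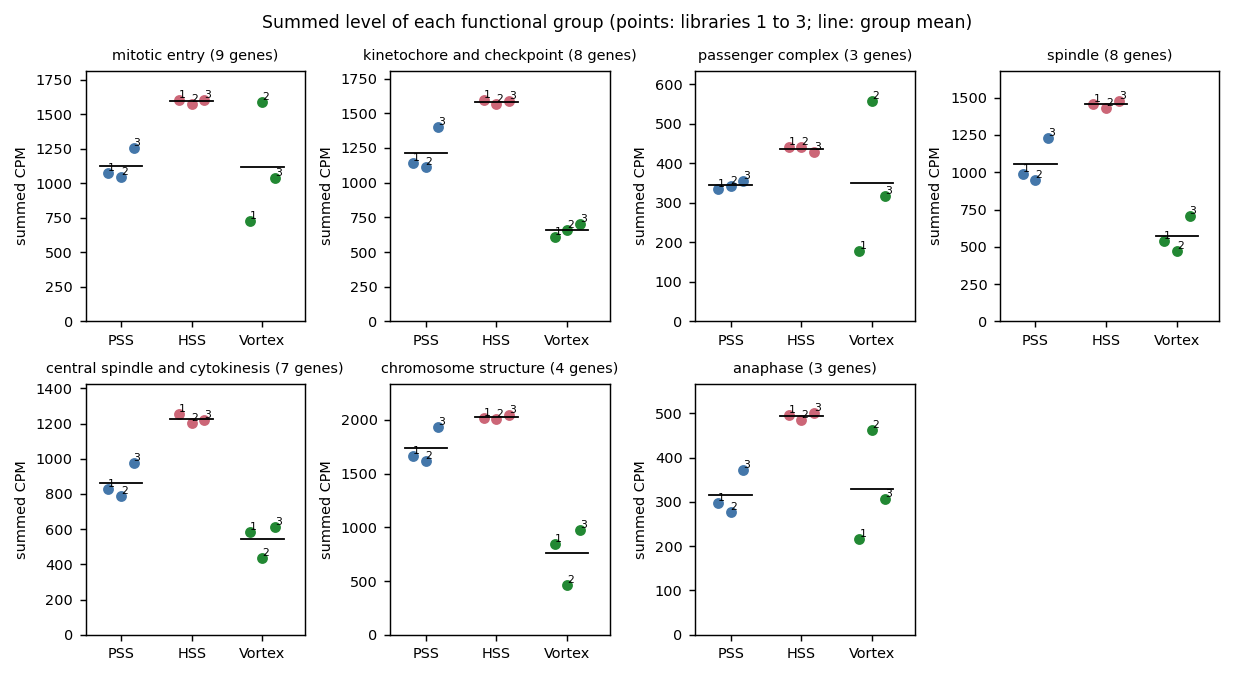
Each panel gives the summed CPM (y axis, from 0) of 1 functional group in the 9 libraries (points, numbered by replicate), with the group mean as a line. Kinetochore, spindle, cytokinesis and chromosome structure sums are lower in all 3 Vortex libraries than in PSS, while entry, passenger complex and anaphase sums reach or pass the PSS range in Vortex 2.

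The 3 Vortex libraries differed from each other. Vortex replicate 1 had 38 members below every PSS library and 2 above (Cdc25b and Anln), with a median log2 difference from the PSS mean of -0.93. Vortex replicate 3 had 31 below and 3 above (Cdc25b, Plk1 and Aurkb), with a median of -0.44. Vortex replicate 2 had 26 below and 11 above (Foxm1, Cdc25b, Plk1, Aurka, Bub1b, Aurkb, Incenp, Birc5, Kif2c, Cdc20 and Ube2c), with a median of -0.65 and a range from -3.18 for Cenpf to 1.23 for Foxm1. HSS replicates had 30 to 33 members above every PSS library and 0 below, with medians of 0.41 to 0.44. Within PSS, replicate 3 was above the group mean for 36 members, by a median of 0.24.

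The split inside Vortex replicate 2 ran with base composition. Over the 42 genes, the Spearman correlation between GC content of the longest annotated transcript and the difference from PSS was 0.82 in Vortex replicate 2, 0.71 in Vortex replicate 3, 0.20 in Vortex replicate 1 and 0.29 to 0.35 in the HSS libraries. The genes of a library share its depth and preparation, so this is a description. The 21 members with GC content up to 45.3% had a median log2 difference of -1.56 in Vortex replicate 2, and the 21 from 46.0% up had 0.23. In Vortex replicate 1 these medians were -0.99 and -0.84, and in Vortex replicate 3 -0.69 and -0.25. Members with a longer gene length, as implied by the deposited FPKM, were lower in Vortex replicate 2 (Spearman -0.73), and GC content and length went together over the members (Spearman -0.56). Over all tested genes the correlation with GC content in Vortex replicate 2 was 0.60.

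**Figure D5:**
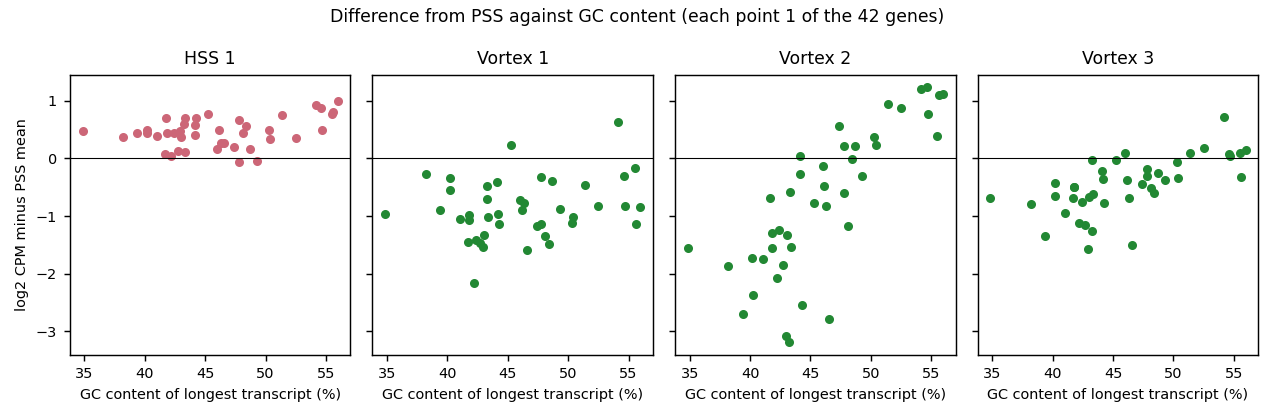
The log2 difference of each of the 42 genes from the PSS mean (y axis) is plotted against GC content of its longest transcript (x axis, %) in HSS replicate 1 and the 3 Vortex libraries. Points climb from below -3 to above 1 in Vortex 2 (Spearman 0.82), lie below 0 at nearly every GC content in Vortex 1 (0.20), and are intermediate in Vortex 3 (0.71).

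The calls that held most widely were those of Cenpe, Kif11, Kif15 and Mki67 in Vortex against PSS. Each passed in 22 of 23 alternative settings, the removal of any 1 library and of the GC trend included, and missed only with the PSS and Vortex libraries alone in the fit (edgeR adjusted p = 0.0561 to 0.0729). Bub1 passed in 21 of 23. Against HSS the same 5 genes each passed in 19 of 23, and missed without any 1 HSS library and with only the HSS and Vortex libraries.

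Other genes of the pathway, grouped by textbook role, were also read in the fit over all genes. Of 40 other kinetochore and centromere genes, 5 fell and 1 rose in Vortex against PSS, where 5.03% of tested genes were called lower and 8.33% higher. Knl1, the scaffold that recruits BUB1, fell by 1.56 (SE 0.32, edgeR adjusted p = 0.0139), and Spdl1, which brings dynein to kinetochores, by 0.86 (SE 0.20, edgeR adjusted p = 0.0245). With the GC trend removed 1 of the 40 was called, where 535 of 15774 tested genes were called lower and 950 higher. Without Vortex replicate 2, 19 fell and 1 rose, where 2698 of 16233 tested genes were called lower and 3190 higher. Hjurp, the chaperone of Cenpa, rose in HSS against PSS by 0.64 (edgeR adjusted p = 0.0410), the only call of the 40 there, where 4.18% of tested genes were called higher.

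Of 20 condensin, cohesin and separase genes, 5 fell in Vortex against PSS, where 5.03% of tested genes were called lower. None passed the test in HSS against PSS by edgeR, DESeq2 or limma-voom (1 higher and 0 lower at an unadjusted p under 0.05). The cohesin ring subunit Smc1a had 244.5, 241 and 276.5 CPM in PSS, 224, 211 and 210 CPM in HSS, and 97.1, 89.5 and 111 CPM in Vortex. Every Vortex library lay below every laminar library, with Vortex replicate 2 the lowest, and Smc1a fell by 1.36 against PSS (SE 0.16, edgeR adjusted p = 0.00314). The cohesin subunit Stag1 fell by 1.47 and the condensin subunit Smc2 by 1.69. With the GC trend removed, 6 of the 20 fell, where 535 of 15774 tested genes were called lower.

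Of 35 other spindle, centrosome and cytokinesis genes, 6 rose in HSS against PSS, where 4.18% of tested genes were called higher. Troap, a microtubule-associated protein, was 51.3, 48.6 and 59.6 CPM in PSS, 120, 118 and 118 CPM in HSS, and 73.8, 97.6 and 93.3 CPM in Vortex. The 3 groups did not overlap, and Troap rose by 1.16 in HSS (SE 0.18, edgeR adjusted p = 0.00623) and by 0.73 in Vortex (SE 0.18, edgeR adjusted p = 0.0270), both against PSS. The centrosomal kinase Nek2 rose by 1.09 and the kinesin Kif3b by 0.72 in HSS. In Vortex against PSS, 4 of the 35 fell and 1 rose, where 5.03% of tested genes were called lower and 8.33% higher. In Vortex against HSS 9 fell, where 2.67% of tested genes were called lower. Kifc1 and Kifc5b of this list are near-identical copies, so their counts are uncertain.

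Regulators outside these groups were read in the same fit, where 5.03% of tested genes were called lower and 8.33% higher in Vortex against PSS. Of 17 APC/C genes 2 fell there, and of 11 DREAM and MuvB genes 1 rose, a share near the background. Of 17 tested brakes and switches of mitotic entry, 2 fell and 2 rose there. Gadd45a, a stress-induced inhibitor of CDK1, was 25.4, 20.9 and 19.9 CPM in PSS, 41.4, 46.9 and 38.2 CPM in HSS, and 94.2, 33.9 and 81.3 CPM in Vortex, and rose by 1.66 against PSS (SE 0.34, edgeR adjusted p = 0.0150). Cdkn1a, the p21 inhibitor of cyclin-dependent kinases, was 41.3, 43.8 and 28.4 CPM in PSS, 69.0, 77.0 and 69.1 CPM in HSS, and 68.9, 116 and 70.0 CPM in Vortex, and rose by 1.17 (SE 0.26, edgeR adjusted p = 0.0202). Chek1, the checkpoint kinase that restrains CDC25, fell by 1.07 (SE 0.20, edgeR adjusted p = 0.0112). For all 3 genes the Vortex and PSS libraries did not overlap.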

How the data were processed

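Polyadenylated RNA from 9 bEnd.3 samples was sequenced, and titles put 3 each into PSS, HSS and Vortex. The labels' protocols name TRIzol extraction, mixed RNA and a NEBNext Ultra kit. HISAT2, HTSeq 0.13.5 and GRCm39 are listed in the submitters' processing notes. Strand setting and annotation: not given in the sources used here. A single table deposited by the authors holds raw counts and FPKM for each gene and library. The deposited FPKM equal the counts divided by 1 length per gene and by the library's total, in 100% of genes (relative tolerance 1e-06).

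The main tests used edgeR 4.0.16 (R 4.3.3) on counts: filterByExpr (15774 genes kept), TMM, a robust quasi-likelihood fit of all 9 libraries, and Benjamini-Hochberg adjustment across the genes kept. The common biological coefficient of variation came to 0.35, and to 0.184 without Vortex replicate 2. CPM values use TMM-scaled totals. Differences from PSS by library use log2 CPM with a prior count of 2. Each standard error is the absolute log2 fold change over the root of the F statistic. GC content is of the longest transcript in GENCODE M21 (98.5% of tested genes), gene length is that implied by the deposited counts and FPKM, and the GC trend was removed by a lowess fit per library with a span of 0.3. Alternatives used DESeq2 1.42.0, limma 3.58.1, log2 FPKM with pseudocounts of 1 and 0.1, other scalings and filters, a replicate block, left-out libraries and the compared libraries alone. The last without Vortex replicate 2 was chosen after seeing the data. The procedure was tested on simulated data.

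The members and lists were chosen with earlier results of these data known. Values by library are given for the member with the highest mean FPKM in each role, the 5 smallest p-values per comparison, and members separated against the majority; of other lists, at most 3 called genes per comparison. Foxm1, Plk1, Aurkb, Birc5, Cenpf, Kif23, Smc4, Cdc20 and Pttg1 were given by range or library after their values were seen. The result of 1 gene of another list is not reported here.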

Additional observations from a re-analysis of the deposited data

How the results depend on the processing

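For HSS against PSS the 2 called members became 0 with no filter beyond 1 count, 1 with the replicate block, 5 with DESeq2, 5 with the GC trend removed, 4 with that and the block, 23 with that and without Vortex replicate 2, 27 with only the compared libraries and 0 at a 2-fold minimum. All tested genes called were 1242, against 772 with the block, 2456 with DESeq2, 4840 with the GC trend removed and no Vortex replicate 2, and 6233 with only the compared libraries. For Vortex against PSS the 17 called members became 11 with the GC trend removed, 5 with that and the block, 0 with only the compared libraries and 11 at a 2-fold minimum. Their median was -0.32 with the GC trend removed. Genes called were 2107, against 1258 with the block, 3489 with DESeq2, 6093 with the GC trend removed and no Vortex replicate 2, 637 with the GC trend removed and the block, 74 with only the compared libraries, and 3664 with those less Vortex replicate 2. For Vortex against HSS the 21 called members became 38 with the GC trend removed and no Vortex replicate 2, 0 with only the compared libraries and 35 with those less Vortex replicate 2. Genes called were 1111, against 713 with no filter, 357 with the block, 2700 with DESeq2, 4262 with the GC trend removed and no Vortex replicate 2, 465 with the GC trend removed and the block, 66 with only the compared libraries, and 4201 with those less Vortex replicate 2.

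Leaving out 1 library at a time gave 0 to 17 called members, a median of 0.33 to 0.55 and 285 to 4730 genes in HSS against PSS. It gave 5 to 28, -0.66 to -0.45 and 519 to 5888 in Vortex against PSS, and 0 to 37, -1.10 to -0.97 and 25 to 3887 in Vortex against HSS. A fit without 1 library rests on 2 in that group, assumed to vary like the others. The replicate numbers were not shown to pair libraries: correlations of same-numbered libraries ran from -0.12 to 0.12. With the replicate block 1, 15 and 18 members were called in the 3 comparisons.

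Among members called or given by library under the naming rules, sign changes occurred in differences that passed no test either way. Of the other members, Cdc20 went from 0.18 to -0.67 in Vortex against PSS without Vortex replicate 2, and the latter passed (edgeR adjusted p = 0.0293). Foxm1, Plk1, Aurka and Aurkb also turned below 0 there, without passing. Leaving out 1 library gave Kif11 -0.0311 to 0.15 in HSS against PSS (below 0 without PSS replicates 1 and 2), Incenp -0.34 to 0.39, Anln -0.40 to 0.105 and Ube2c -0.0404 to 0.25 in Vortex against PSS (each turned without Vortex replicate 2), and Cdc25b -0.25 to 0.0317 in Vortex against HSS (above 0 without Vortex replicates 1 and 3). In Vortex against PSS, with the GC trend removed, Ccnb1 was 0.0404, Incenp -0.27, Prc1 0.0325, Anln 0.0624 and Ube2c -0.28. With that and no Vortex replicate 2, Incenp was -0.52, Anln 0.18 and Ube2c -0.26, and with that and the block, Incenp was -0.31, Prc1 0.0204, Anln 0.0528 and Ube2c -0.26. With only the compared libraries less Vortex replicate 2 Incenp was -0.33, Anln 0.11 and Ube2c -0.0367. Incenp and Ube2c were -0.0477 and -0.0544 with library totals, -0.17 and -0.0633 with log2(FPKM + 1), and -0.18 and -0.0645 with log2(FPKM + 0.1). The cause of these changes was not tested.

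Scaling moved the median of all genes in Vortex against PSS from 0.11 to -0.06 with library totals and to -0.15 with log2(FPKM + 0.1). The members' median less that of all genes was -0.69, -0.69 and -0.66 in these settings. With the GC trend removed it was -0.39, with the block as well -0.42, and with the GC trend removed and no Vortex replicate 2 -0.57. The share of all calls that were lower was 37.6% with TMM, 58.3% with library totals and 66.6% with log2(FPKM + 1), and in Vortex against HSS 37.9%, 54.2% and 66.6%. The smallest count of any member in any library was 285.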

Other observations

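Genes of DNA replication, the phase before the one described, were placed otherwise than the mitosis genes between the laminar flows. The summed level of 20 S phase genes was 3259, 3311 and 3560 CPM in PSS, 3169, 3160 and 3171 CPM in HSS, and 1132, 4746 and 2239 CPM in Vortex. No S phase gene passed the test in HSS against PSS by edgeR, DESeq2 or limma-voom (0 of 20 at an unadjusted p under 0.05, median log2 fold change -0.14), where the mitosis genes had a median of 0.42. In Vortex against PSS 1 of 20 fell, a share like the 5.03% of all tested genes called lower. It was Pola1, the catalytic subunit of DNA polymerase alpha, which was 81.6, 76.0 and 102 CPM in PSS and 27.1, 13.5 and 38.9 CPM in Vortex (log2 fold change -1.71, SE 0.34, edgeR adjusted p = 0.0129). Without Vortex replicate 2, 17 of the 20 fell, where 2698 of 16233 tested genes were called lower. The difference between the S phase and the mitosis list was not tested.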
